A study of Mus musculus with 12 samples.

Results

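The 10 genes described here carry the class I and class II branches of antigen presentation, and they were chosen as a named list: H2-D1, H2-K1, B2m, Tap1, Tap2 and Tapbp for class I, and Cd74, H2-Aa, H2-Ab1 and H2-Eb1 for class II. They are 10 of the 12393 genes that the array measured with a probe set assigned to a single gene symbol. Where a gene has several such probe sets, the brightest by its mean across arrays stands for it, and each of the 10 genes has at least 1.

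RNA was taken from the striatum of C57Bl/6 mice in 4 groups of 3: controls at 9 weeks, TIF-IAD1RCre mutants at 9 weeks, controls at 13 weeks and TIF-IAD1RCre mutants at 13 weeks. The mutants carry a deletion of TIF-IA, encoded by Rrn3, which recruits RNA polymerase I to the ribosomal RNA genes, and D1R-Cre restricts the deletion to neurons that use the D1 dopamine receptor gene. The labels call the other mice only control and do not give their alleles. The labels name biological replicates and give the cell type as medium spiny neurons (MSNs), but glial marker genes were well measured in every array, so the values are those of a tissue with several cell types. In such bulk RNA, more cells of a type and more RNA per cell cannot be told apart.

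Class I molecules stand on nearly all nucleated cells and show peptides made inside the cell to cytotoxic T cells. A heavy chain (H2-D1 or H2-K1) pairs with β2-microglobulin, the TAP transporter brings peptides into the endoplasmic reticulum, and tapasin holds the empty molecule beside the transporter until a peptide fits. Class II molecules, built from an α and a β chain and escorted by the invariant chain CD74, show peptides taken up from outside to helper T cells and are largely restricted to professional antigen-presenting cells. In healthy brain, class I RNA is low in neurons and higher in microglia and endothelium, and class II is scarce in the parenchyma.

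Because the class I heavy chain genes, B2m and the class II chain genes share a promoter module, the 250 bases before the transcription start are shown for the 5 members whose RefSeq window (GRCm38.p6) holds its central letters. Windows of 300 bases, from 250 before to 50 after the start, were given for 7 of the 10 members; Tap2, H2-Ab1 and Cd74 are named only. Capitals mark TGANG, the cyclic AMP response element-like X2 box, followed after 15 to 25 letters by ATTGG, the Y box, and in the heavy chain genes also GGGATTCC, the core of a κB-like element, and GAANNGAAA, an interferon regulatory factor-type repeat, here read on the other strand. H2-K1 has 2 annotated starts, of which the first is shown (chr17:34000348-34000597, minus strand). The other stretches are H2-D1 (chr17:35262844-35263093, plus strand), B2m (chr2:122147437-122147686, plus strand), H2-Aa (chr17:34287824-34288073, minus strand) and H2-Eb1 (chr17:34305617-34305866, plus strand).
H2-K1: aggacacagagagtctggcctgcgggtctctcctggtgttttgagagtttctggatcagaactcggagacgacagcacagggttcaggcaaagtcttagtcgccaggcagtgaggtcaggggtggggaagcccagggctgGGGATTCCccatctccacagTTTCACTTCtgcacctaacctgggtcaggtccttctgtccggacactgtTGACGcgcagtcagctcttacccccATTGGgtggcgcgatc
H2-D1: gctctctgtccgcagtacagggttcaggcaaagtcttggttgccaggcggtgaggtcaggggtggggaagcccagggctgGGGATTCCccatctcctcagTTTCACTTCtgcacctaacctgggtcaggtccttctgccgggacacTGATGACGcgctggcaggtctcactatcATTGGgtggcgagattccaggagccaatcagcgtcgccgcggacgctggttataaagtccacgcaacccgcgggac
B2m: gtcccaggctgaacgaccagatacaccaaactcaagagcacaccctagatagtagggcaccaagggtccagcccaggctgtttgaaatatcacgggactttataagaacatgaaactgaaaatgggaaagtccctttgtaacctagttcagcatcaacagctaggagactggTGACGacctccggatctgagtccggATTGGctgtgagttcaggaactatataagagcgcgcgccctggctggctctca
H2-Aa: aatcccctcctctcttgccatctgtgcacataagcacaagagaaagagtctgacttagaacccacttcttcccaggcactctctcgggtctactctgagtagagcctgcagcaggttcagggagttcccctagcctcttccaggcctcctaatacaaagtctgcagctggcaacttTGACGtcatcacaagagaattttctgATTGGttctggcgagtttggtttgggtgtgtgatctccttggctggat
H2-Eb1: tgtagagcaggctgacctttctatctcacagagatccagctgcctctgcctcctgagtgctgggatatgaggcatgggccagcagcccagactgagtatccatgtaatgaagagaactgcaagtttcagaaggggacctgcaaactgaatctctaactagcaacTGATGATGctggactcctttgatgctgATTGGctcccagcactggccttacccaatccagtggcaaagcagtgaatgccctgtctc

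The spaced pair of TGANG and ATTGG was found in 5 of the 7 members' windows, against 2.79% of all 32851 promoter windows of the same length. In H2-K1 it ran from base -41 to base -12 before the first start, in H2-D1 from -101 to -72, in B2m from -78 to -49, in H2-Aa from -74 to -44 and in H2-Eb1 from -83 to -55. H2-D1 and H2-Eb1 each hold a further, overlapping TGANG 3 bases upstream of the one counted here. GGGATTCC and GAANNGAAA were found in H2-K1 and H2-D1 only among the 7, with shares of 1.06% and 7.52% over all windows. The B2m stretch holds gaaactgaaa, a similar repeat with a wider gap that GAANNGAAA does not match. Tap1 and Tapbp hold ATTGG alone, which 37.4% of all windows also hold. Both strands were searched, and the letters were chosen after these promoters had been read, so the matches describe the sequences and say nothing of factor binding.

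All values below are the deposited GCRMA log2 signals, on which a difference of 1 is a doubling. H2-D1, H2-K1, B2m and Tapbp exceeded the 40th percentile of the probe sets on an array in all 12 arrays. The other 6 members (Tap1, Tap2, Cd74, H2-Aa, H2-Ab1 and H2-Eb1) did so only in the mutants at 13 weeks, so they entered the test through the group in which they are high. GCRMA compresses low values, so for those 6 genes the size of a difference from the other groups depends on that background correction, no fold is given, and sizes are not ranked. A gene was tested if it lay above the percentile in at least 3 arrays, which left 8256 genes, and it passed at an adjusted p under 0.05 in limma's moderated test with Benjamini-Hochberg adjustment over all 8256 genes. The number of arrays limits the precision.

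A few facts of the arrays touch the results. Rrn3, for which it is not known whether the probe set lies in the deleted stretch, was lower in mutants at 9 weeks by a difference of -1.13 ± 0.18 (SE, n = 3, adjusted p = 0.00748) and differed by -0.35 ± 0.18 at 13 weeks (adjusted p = 0.128). Xist and Eif2s3y marked as female 1 of 3 mice in every group except the mutants at 13 weeks, where they marked all 3. Control mouse 3 at 13 weeks, the only female of its group, was the highest of its group for 8 of the 10 members, and results that change without it or among females alone are given beside it. A fit of females alone has 1 array in every group but the mutants at 13 weeks, so that its spread comes from those 3 mutants alone and each single array is assumed to vary as they do.

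**Figure D1:**
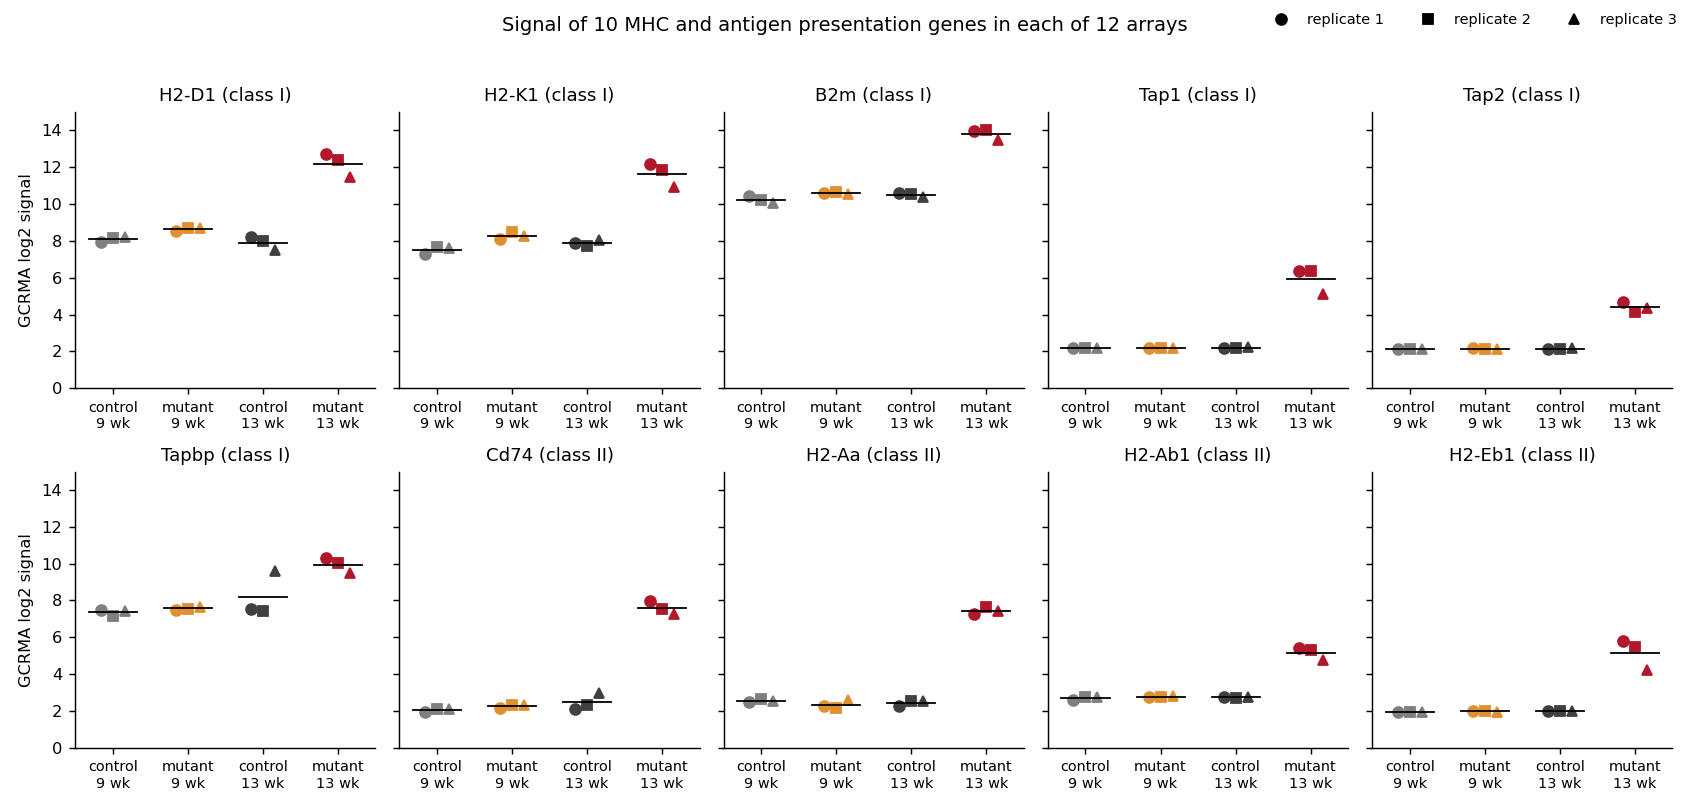
GCRMA log2 signal (y axis) of the 10 genes in each array, by group (x axis). Point shapes give the replicate number, horizontal lines the group means; in the mutants at 13 weeks every gene but Tapbp lies above all other arrays, and Tapbp of control mouse 3 at 13 weeks (9.59) lies among the mutants.

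At 13 weeks the brightest probe set of each heavy chain gene was more than 10 times as high in mutants as in controls. The H2-D1 signal was 8.19, 7.98 and 7.52 in controls against 12.70, 12.39 and 11.49 in mutants. The lowest mutant lay more than 3 log2 units above the highest control. H2-D1 rose by 4.30 ± 0.27 log2 (SE, n = 3), or 19.7-fold, with limma's adjusted p = 2.35e-07. Of its 9 single-symbol probe sets, the other 3 that cleared the filter rose by 4.20, 4.32 and 3.75 log2, while the 5 that did not differed by between -0.07 and 0.16, so the mean of all 9 gave 1.84 log2 (adjusted p = 1.33e-06). H2-K1 was 7.86, 7.70 and 8.03 in controls and 12.16, 11.84 and 10.95 in mutants, and these groups did not overlap either. Its rise was 3.79 ± 0.27 log2, or 13.8-fold (adjusted p = 5.40e-07).

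B2m, the light chain that every class I heavy chain needs, read 10.59, 10.52 and 10.38 in controls against 13.97, 14.02 and 13.48 in mutants at 13 weeks. All mutants stood clear of all controls. The rise was 3.33 ± 0.17 log2, or 10.03-fold (adjusted p = 3.92e-08).

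Tap1 and Tap2 encode the subunits of the peptide transporter, and both moved from the low end of the scale. Tap1 stayed between 2.16 and 2.23 in the other 9 arrays and reached 6.35, 6.36 and 5.12 in the mutants at 13 weeks. Its rise was 3.75 ± 0.27 log2 (adjusted p = 6.10e-07). Tap2 read 2.10, 2.12 and 2.16 in controls and 4.67, 4.16 and 4.36 in mutants, a rise of 2.27 ± 0.14 log2 (adjusted p = 2.25e-07). With values under 3.81, the highest of the arrays' 40th percentiles, raised to it, the differences were 2.13 for Tap1 and 0.59 for Tap2. Tap1 has 4 single-symbol probe sets, and the other 3 stayed low in every group, with differences at 13 weeks of -0.06, -0.03 and -0.04.

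Tapbp, which encodes tapasin, gave a value that 1 control decided. At 13 weeks it read 7.54, 7.42 and 9.59 in controls and 10.33, 10.04 and 9.47 in mutants, so control mouse 3 lay above mutant mouse 3 and the groups overlapped. The difference was 1.76 ± 0.46 log2, or 3.39-fold (adjusted p = 0.00805). Without control mouse 3 it was 2.47 log2 (adjusted p = 7.22e-06), and in a fit of the 13-week arrays alone the adjusted p was 0.055. Among females alone it was 0.36 log2 (adjusted p = 0.431), but there control mouse 3 is the single control. A dimmer Tapbp probe set read 1.83, 1.83 and 1.85 in controls and 4.52, 5.11 and 3.75 in mutants, without overlap.

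The class II members rose from values that were low in the other 3 groups. Cd74, the invariant chain, was 2.13, 2.33 and 2.96 in controls and 7.97, 7.55 and 7.29 in mutants at 13 weeks. The difference was 5.13 ± 0.22 log2 (adjusted p = 9.11e-09), against controls that all lay below the percentile. H2-Aa, the α chain of I-A, read 2.24, 2.54 and 2.56 in controls and 7.26, 7.62 and 7.45 in mutants. It rose by 4.997 ± 0.16 log2 (adjusted p = 1.07e-09), and by 3.14 with its probe sets averaged.

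The β chain genes rose as well. H2-Ab1, the partner of H2-Aa in I-A, read 2.74, 2.71 and 2.78 in controls and 5.41, 5.33 and 4.75 in mutants, a rise of 2.42 ± 0.17 log2 (adjusted p = 5.33e-07). H2-Eb1, the β chain of I-E, read 1.97, 1.97 and 1.99 in controls and 5.77, 5.45 and 4.20 in mutants, a rise of 3.16 ± 0.30 log2 (adjusted p = 7.33e-06). Neither gene's groups overlapped. With low values raised to 3.81 the class II differences were 3.79 for Cd74, 3.63 for H2-Aa, 1.35 for H2-Ab1 and 1.33 for H2-Eb1. Another H2-Aa probe set read 4.65, 3.38 and 2.08 in the mutants at 13 weeks, so that mutant mouse 3 lay at the level of the controls there (2.07, 2.09 and 2.12), and another H2-Ab1 probe set did the same with 3.42, 3.22 and 1.97 against 1.99, 2.01 and 2.04.

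Counted together, 10 of 10 members passed the test at 13 weeks, all higher, against 45.3% of all genes in either direction and 23.4% higher. In 9 of them, all but Tapbp, the 3 mutants lay above the 3 controls, which held for 27.8% of all genes. Since 6 members were tested only because they are high in these mutants, the count was repeated without the filter on low signals, over 12393 genes: 10 of 10 were again higher, with 30.6% of all genes past the test in either direction. With each gene's probe sets averaged, Tap1 and H2-Ab1 did not clear the filter and the other 8 were higher. The list's median difference was 3.54 log2, against 0.003 over all genes. Among the mutants at 13 weeks, mouse 3 was the lowest for 8 of the 10 members and the highest for none; its microglial marker mean was also the lowest of the 3 (10.03, against 10.48 and 10.31), and its mean over medium spiny neuron markers the highest (9.83, against 9.13 and 9.23). The part of these differences in the members' values was not tested.

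**Figure D2:**
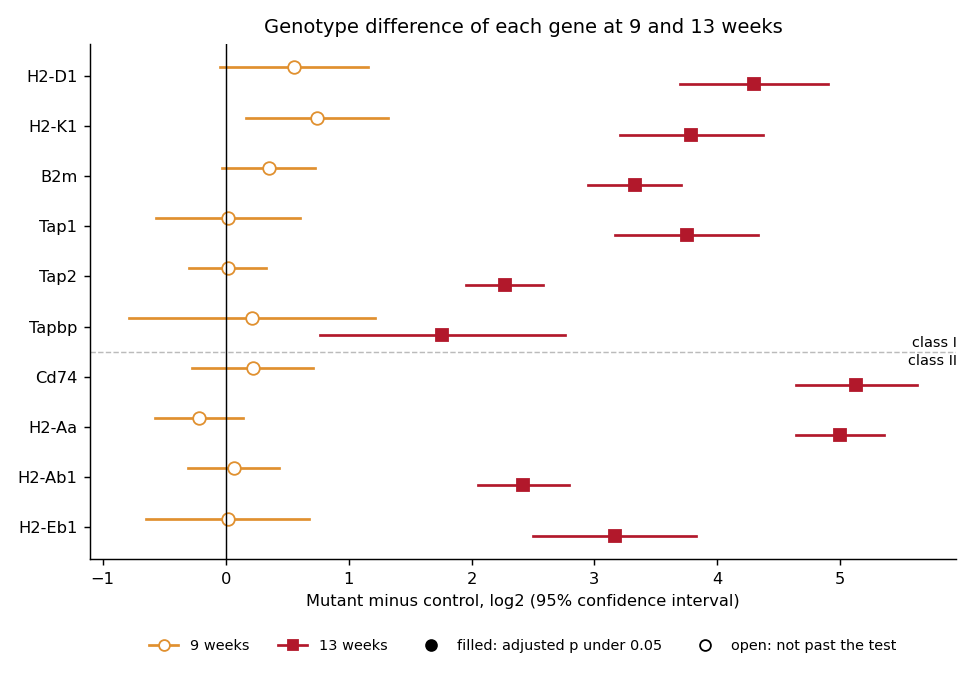
Difference between mutant and control means (x axis, log2, with limma's 95% confidence interval) for each gene at 9 weeks (circles) and 13 weeks (squares). Filled symbols passed the test: all 10 genes did at 13 weeks and 0 at 9 weeks. Sizes at 13 weeks are not ranked, since 6 of the genes lay below the percentile in the other groups.

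At 9 weeks none of the 10 members passed limma's test, against 5% of all genes, and 1 of 10, H2-K1, had an unadjusted p under 0.05, against 21.4% of all genes. The signals of the class I chains nevertheless separated by genotype. H2-D1 read 7.92, 8.14 and 8.19 in controls and 8.52, 8.69 and 8.71 in mutants, a difference of 0.56 ± 0.27 log2 (adjusted p = 0.267). H2-K1 read 7.27, 7.69 and 7.62 in controls and 8.09, 8.46 and 8.26 in mutants, a difference of 0.74 ± 0.27 log2 (adjusted p = 0.132). B2m read 10.44, 10.24 and 10.04 in controls and 10.60, 10.65 and 10.52 in mutants, a difference of 0.35 ± 0.17 log2 (adjusted p = 0.266). In each of these 3 genes all mutants lay above all controls of their age. Set against the controls at 13 weeks, the 9-week mutants were still above every control in H2-D1 and H2-K1, while B2m overlapped. H2-D1 and H2-K1 passed in a fit of the 9-week arrays alone (adjusted p = 0.0307 and 0.0292, with 12.7% of all genes past the test), and H2-K1 passed when mutant mouse 3 at 13 weeks was left out (adjusted p = 0.0362).

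The same order was seen in Cd74, with 1.92, 2.10 and 2.11 in controls and 2.14, 2.33 and 2.32 in mutants, but these values are at the bottom of the scale (difference 0.22 ± 0.22, adjusted p = 0.633). In all, 4 of 10 members had every mutant above every control, against 15% of all genes. Tap1, Tap2, H2-Ab1 and H2-Eb1 differed by 0.02, 0.02, 0.07 and 0.02 log2. H2-Aa differed by -0.22 ± 0.16 (adjusted p = 0.497) and Tapbp by 0.22 ± 0.46 (adjusted p = 0.840). The 95% intervals at 9 weeks reached up to 1.16 log2 for H2-D1 and 1.32 for H2-K1, below the lower bounds at 13 weeks of 3.70 and 3.21.

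The 9-week class I signal depended on the probe set. Over the filter lay 17 probe sets for class I heavy chains and B2m, 5 of them shared by several symbols. Several of the 17 measure the same gene, and many of these genes are so alike that signal from one can reach the probes of another, so the probe sets are not independent. In 9 of the 17, all 9-week mutants lay above all controls, against 15% of the 14136 probe sets over the filter, and in 1 all lay below, against 18.5%. None passed limma's test over these probe sets, against 3.64%, and 6 had an unadjusted p under 0.05, against 20%. The other H2-D1 probe sets differed by 0.61, 0.87 and 0.31 log2 and the other B2m probe set by 0.37. For H2-K1, however, the second-brightest probe set read 6.94, 7.09 and 7.39 in controls and 6.79, 6.92 and 6.92 in mutants, the reverse order (-0.26 ± 0.34), and a dimmer one differed by 0.01. At 13 weeks these H2-K1 probe sets differed by 3.88 and 3.87 log2, against 3.79 for the brightest. The dimmer one read 3.44 to 3.56 in every array outside the mutants at 13 weeks, close to the percentile. A small change at 9 weeks would hardly show there, and its size at 13 weeks depends on the background correction.

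Among the shared probe sets, the one for H2-T9, H2-T22 and H2-T10, nonclassical class I genes, read 6.25, 6.27 and 6.57 in controls and 7.21, 7.22 and 7.18 in mutants at 9 weeks. Its difference of 0.84 ± 0.27 log2 had the lowest adjusted p of the 17, 0.0998. The one for H2-T23, which encodes Qa-1, read 6.92, 6.95 and 6.88 in controls and 7.37, 7.48 and 7.59 in mutants (0.56 ± 0.28). The controls at 13 weeks reached 6.83, 7.12 and 7.38 on the first of these and 7.73, 7.76 and 7.23 on the second, which overlaps the mutants at 9 weeks. The H2-Q6/H2-Q8 and H2-Q9/H2-Q7 probe sets differed by 0.02 log2 each at 9 weeks and by 4.61 and 3.66 at 13 weeks. Outside the mutants at 13 weeks they read at most 2.31 and 2.63, where a small change at 9 weeks would hardly show. Their sizes at 13 weeks depend on the background correction. At that age 16 of the 17 passed, against 42.3% of the probe sets over the filter. The H2-Q6/H2-Q8 and H2-Q9/H2-Q7 probe sets are among the 16 and cleared the filter only through the mutants at 13 weeks. The filter thus partly set this count, which leaves out the class I probe sets under it. The 1 that did not pass, for H2-T18, differed by -0.23. Of the other single-symbol probe sets, that of H2-T24 read 3.93, 3.24 and 3.58 in controls and 5.36, 4.25 and 4.03 in mutants at 9 weeks (0.96 ± 0.37, adjusted p = 0.150), and that of H2-M3 differed by -0.03.

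**Figure D3:**
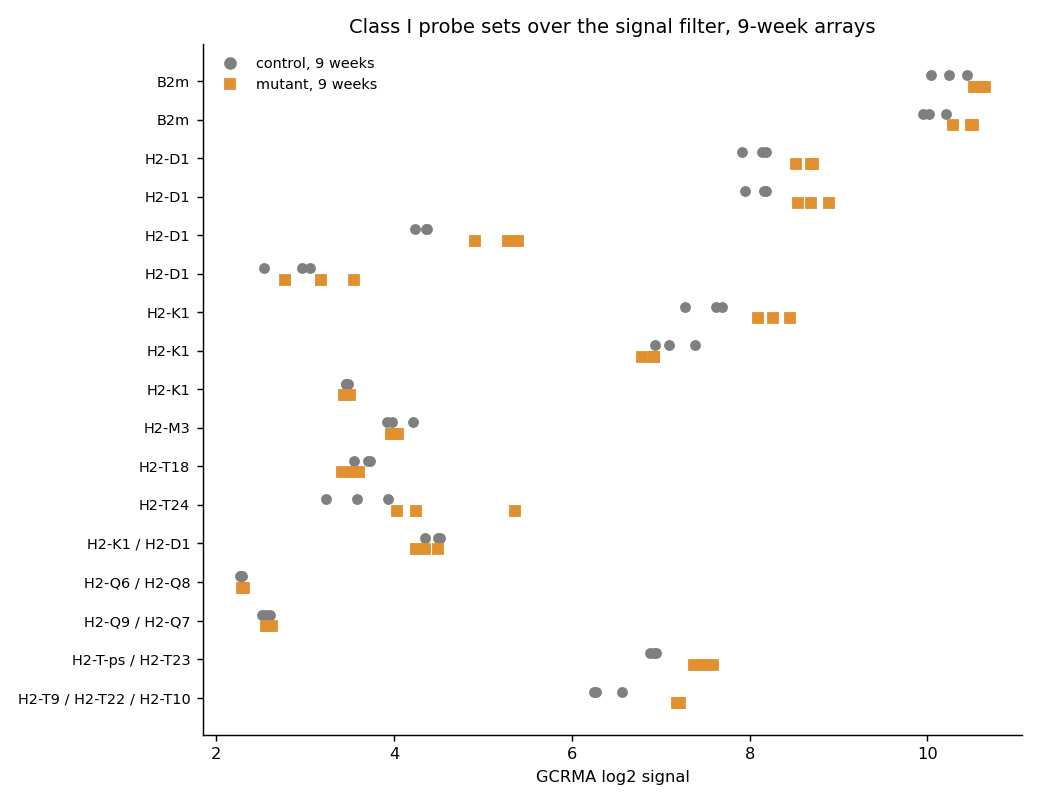
GCRMA log2 signal (x axis) of the 17 class I heavy chain and B2m probe sets over the filter in the 9-week controls (circles) and mutants (squares), 1 row per probe set with the symbols it is assigned to. Mutants lie above controls in 9 rows and below in 1, the second H2-K1 row; levels of different rows are not comparable.

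The genotype difference was larger at 13 than at 9 weeks for 9 of the 10 members by limma's interaction test, against 18.4% of all genes in either direction and 12.1% in this direction. As 6 members were tested only because they are high in the mutants at 13 weeks, the count was also taken without the filter. There 9 of 10 again passed, with 11.6% of all genes past the test in either direction. The change of the difference was 3.74 ± 0.39 log2 for H2-D1, 3.04 ± 0.38 for H2-K1 and 2.98 ± 0.24 for B2m. It was 4.91 ± 0.32 for Cd74 and 5.21 ± 0.23 for H2-Aa. Tapbp, with 1.55 ± 0.65 and adjusted p = 0.123, did not pass; without control mouse 3 at 13 weeks it did, with 2.25 ± 0.29 (adjusted p = 0.000289). Among females alone, where 3 of the 4 groups are 1 array each, H2-Eb1 did not pass (3.12 log2, adjusted p = 0.0789).

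Age was compared within each genotype, using the same arrays. In controls 0 of 10 members passed limma's test from 9 to 13 weeks and 0 had an unadjusted p under 0.05, against 0.145% of all genes past the test and 17.3% unadjusted. Differences in controls ran from -0.19 (H2-D1) to 0.83 (Tapbp), and without mouse 3 at 13 weeks the Tapbp difference was 0.13. Among females alone, which sets that mouse against 1 control at 9 weeks, the Tapbp difference was 2.18 (adjusted p = 0.0312). In mutants all 10 members were higher at 13 weeks, against 32.7% of all genes in either direction and 16.1% higher. Among the 10 are the 6 that entered the test through these mutants. Without the filter 10 of 10 were again higher, with 22.6% of all genes past the test in either direction. The differences were 3.55 log2 for H2-D1, 3.38 for H2-K1, 3.23 for B2m and 2.38 for Tapbp, the members above the percentile in all arrays. In all 10 members the mutants at 13 weeks lay above those at 9 weeks, which held for 22.8% of all genes.

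Class I was set against class II through each array's mean difference from the 9-week control mean, over the 6 and the 4 members. At 9 weeks the class I shift was 0.26, 0.36 and 0.33 log2 in the mutants and the class II shift -0.03, -0.01 and 0.11. All 4 class II members, with Tap1 and Tap2, lay below the percentile in both 9-week groups, where a small change would hardly show, so the class II shift near 0 says little and the classes cannot be ordered at this age. In the controls at 13 weeks the class I shift was 0.16, 0.07 and 0.40, so mouse 3 lay above the 9-week mutants, and the class II shift was -0.04, 0.08 and 0.26.

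In the mutants at 13 weeks class I had shifted by 3.78, 3.55 and 2.90 and class II by 4.29, 4.18 and 3.61. With low values raised to 3.81, class I had shifted by 3.23, 3.00 and 2.34 and class II by 2.79, 2.68 and 2.11, so which class moved further depended on how values under the percentile were treated. These means describe the chosen members and have no p. With the mean of all of a gene's probe sets in place of the brightest, the genotype difference at 13 weeks was 2.26 for class I and 3.30 for class II, and at 9 weeks 0.16 for class I.

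**Figure D4:**
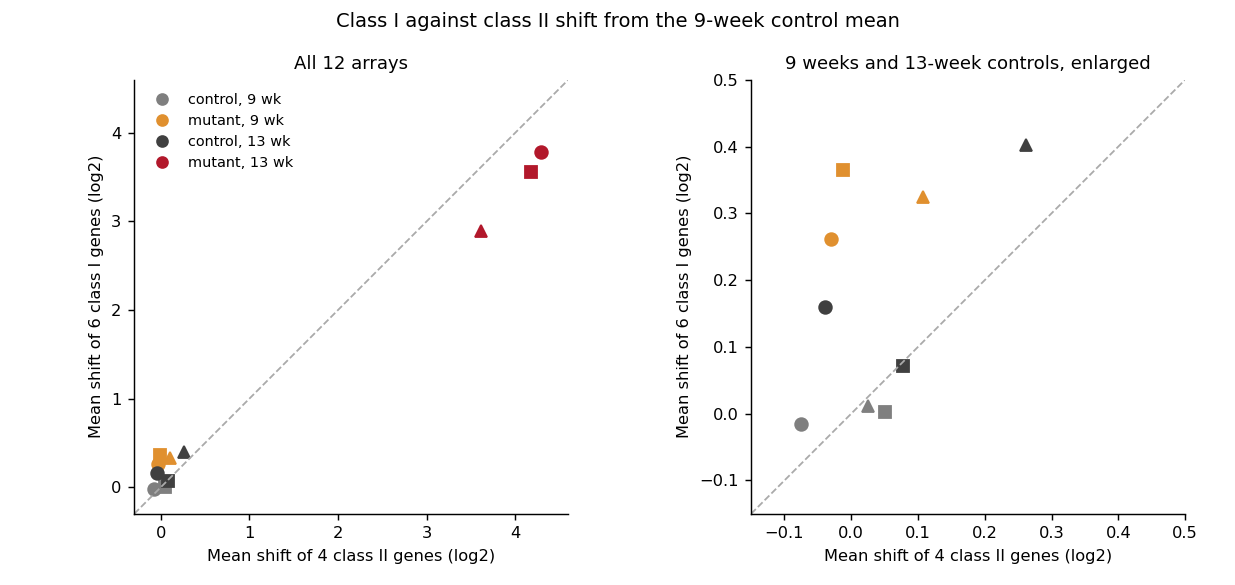
Mean shift of the 6 class I genes (y axis) against that of the 4 class II genes (x axis), log2 from the 9-week control mean, 1 point per array with the replicate number as its shape (1 circle, 2 square, 3 triangle) and the dashed line where both are equal. The 9-week mutants lie near 0.3 on the class I axis and the 13-week mutants far from both controls; the side of the line carries no order of the classes, since the class II genes lie below the percentile in all groups but the last.

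Of a list of 25 other class I and class I-like chains, 14 had a single-symbol probe set and 5 were tested. At 13 weeks 4 of the 5 were higher and 0 lower, against 23.4% and 21.9% of all genes, with a median of 1.95 log2. Without the filter, 5 of 14 were higher and 1 lower, against 30.6% of all genes past the test, and the median was -0.01. H2-M3, which presents formylated peptides, rose by 3.12 ± 0.20 (adjusted p = 2.09e-07), and Fcgrt, the neonatal Fc receptor, by 1.95 ± 0.19. Hfe, which takes part in iron control, rose by 2.74 ± 0.46 and H2-T24 by 1.55 ± 0.35. Cd1d1, which presents lipids, differed by 0.53 ± 0.26 and did not pass. The fifth gene higher without the filter was Mr1, which presents microbial metabolites (0.84), and the 1 lower was H2-Q2 (-0.18). Of the 14 genes, 8 never exceeded the percentile in any array.

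Peptide supply and class I loading genes were next. At 13 weeks 6 of 12 tested were higher and 0 lower (median 0.90 log2), against 23.4% of all genes higher and 21.9% lower. In either direction 50% were past the test, against 45.3% of all genes. The immunoproteasome subunits Psmb8, Psmb9 and Psmb10 rose by 4.58 ± 0.30, 4.21 ± 0.17 and 1.83 ± 0.25, and Erap1, which trims peptides in the endoplasmic reticulum, by 3.52 ± 0.15. Psmb8, Psmb9 and Erap1 exceeded the percentile only in the mutants at 13 weeks. Their sizes thus depend on the background correction and are not comparable with that of Psmb10. Psme1, a proteasome activator subunit, and Tapbpl, a tapasin relative, rose by 1.14 and 0.85. The general chaperones of the loading complex did not pass: Calr differed by -0.09, Canx by 0.11 and Pdia3 by 0.48. Calr, calreticulin, was the 1 gene of this list past the test at 9 weeks, where it fell by 0.79 log2 (adjusted p = 0.0252).

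Genes of class II loading are largely lysosomal. Of 8 tested, 6 were higher at 13 weeks and 0 lower, against 23.4% and 21.9% of all genes, with a median of 2.31 log2. Without the filter 7 of 10 were higher, against 16% of all genes, and the median was 1.74. Ifi30, a lysosomal thiol reductase, rose by 3.57 ± 0.21 and the proteases Ctsd, Ctss and Ctsl by 2.66, 2.60 and 2.32. H2-DMa, a chain of the peptide editor H2-M, differed by -0.46 ± 0.26 (adjusted p = 0.165), and H2-Ea by -0.26 ± 0.22 (adjusted p = 0.355). A probe set shared by H2-DMb1 and H2-DMb2, the partner chains of H2-DMa, read 2.99, 3.40 and 2.53 in controls and 5.58, 4.84 and 5.14 in mutants at 13 weeks.

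Regulators of MHC transcription differed among themselves. At 13 weeks 9 of 20 tested were higher and 2 lower (median 0.20 log2), against 23.4% of all genes higher and 21.9% lower. In either direction 55% were past the test, against 45.3% of all genes. The interferon regulatory factor genes Irf9, Irf8 and Irf1 rose by 4.32 ± 0.47, 3.44 ± 0.25 and 1.79 ± 0.15, and the interferon receptor gene Ifnar2 by 1.54 ± 0.18. Subunits of the RFX and NF-Y complexes, which bind the X and Y boxes of MHC promoters, gave mixed values: Rfxank -0.56 and Nfyb -0.67, both past the test, Nfya 0.64, past it too, and Rfx5 -0.003, Rfxap -0.37 and Nfyc -0.40, which were not. At 9 weeks Rfx5 was lower by a difference of -0.76 (adjusted p = 0.0412). Ciita, the class II transactivator, stayed between 2.04 and 2.19 in all 12 arrays, under the percentile, and was not tested. At values this low a change in its RNA could go unseen. Without the filter, 7 of 21 were higher and 2 lower, against 16% of all genes higher and 30.6% past the test in either direction.

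Costimulatory and checkpoint ligands, which T cells read together with MHC, were measured for 11 genes and tested for 5. All 5 were higher at 13 weeks (median 3.24 log2), against 23.4% of all genes. Cd86 rose by 3.73 ± 0.16, Icam1 by 3.73 ± 0.35, Cd83 by 3.24 ± 0.49 and Cd274, which encodes PD-L1, by 2.01 ± 0.16, with Icosl the fifth. Cd86, Icam1 and Cd274 exceeded the percentile only in the mutants at 13 weeks, so the sizes of their differences depend on the background correction. The other 6 genes did not clear the filter, so this count was drawn from genes high in at least 3 arrays. Without the filter 5 of 11 were higher, against 16% of all genes, and the median was 0.03.

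Genes of the cells that read MHC molecules were mostly at the low end of the scale. Of 19 T and NK cell and MHC receptor genes on the array, 18 never exceeded the percentile in any array. Lag3, a receptor for class II, was the other gene: it stayed between 2.23 and 2.29 in the other 9 arrays and was 7.12, 6.61 and 5.99 in the mutants at 13 weeks, a rise of 4.32 ± 0.22 (adjusted p = 3.92e-08). The 8 T cell markers, among them Cd3d, Cd3e, Cd3g, Cd8a and Cd8b1, had a mean signal of 2.35 to 2.37 in the mutants at 13 weeks and 2.41 to 2.46 in the controls.

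**Figure D5:**
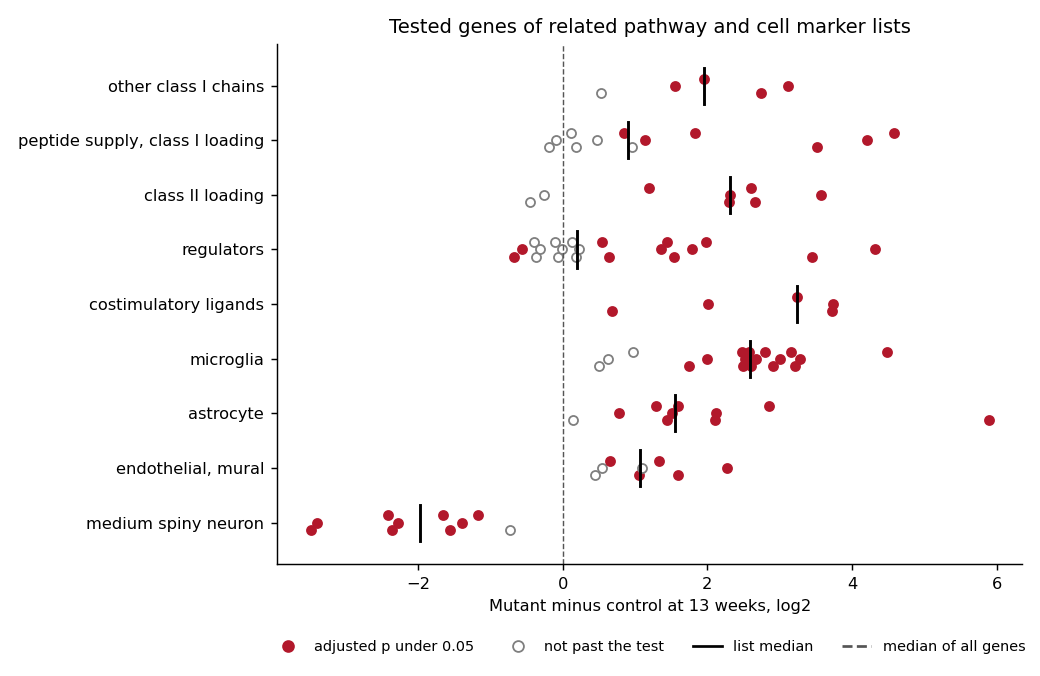
Mutant minus control difference at 13 weeks (x axis, log2) of each tested gene of 9 lists, filled where it passed the test; black bars are list medians and the dashed line the median of all genes, 0.003. Costimulatory, class II loading and microglial genes lie mostly to the right, regulators spread around 0 and medium spiny neuron genes lie to the left.

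Cell marker lists moved with the members at 13 weeks. Their counts stand against 23.4% of all genes higher and 21.9% lower. Of 18 microglial markers tested, 15 were higher and 0 lower (median 2.59 log2), and their mean signal was 7.60 to 7.95 in controls and 10.03 to 10.48 in mutants. Ptprc, which encodes CD45, rose by 4.48 ± 0.34, the complement gene C1qb by 2.52 ± 0.21 and Fcrls by 3.28 ± 0.27, beside the Ctss named above. The 3 that did not pass were P2ry12, Tmem119 and Sall1, with 0.50, 0.98 and 0.63, while Cx3cr1, Gpr34 and Olfml3, which are likewise known from resting microglia, rose by 2.00, 2.48 and 2.67. Of 10 astrocyte markers 9 were higher (median 1.56 log2), led by Gfap, an intermediate filament gene, with 5.89 ± 0.30. Of 10 medium spiny neuron markers 9 were lower (median -1.97), with a mean signal of 11.20 to 11.80 in controls and 9.13 to 9.83 in mutants; Pde10a, a striatal phosphodiesterase, fell by 3.39 ± 0.26. Of 8 endothelial and mural markers tested, 5 were higher. The part of these shifts in the members' rise was not tested.

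Markers of other immune cells were mostly at the low end. Of 9 border macrophage markers 6, Mrc1, Lyve1 and F13a1 among them, were never above the percentile, and Stab1, the 1 tested, differed by 0.30 ± 0.23 at 13 weeks (adjusted p = 0.301); the list's mean signal was 2.64 to 2.75 in controls and 2.59 to 2.85 in mutants. Of 7 dendritic cell markers 6 were never above it, Flt3, Zbtb46, Xcr1 and Ccr7 among them, while Itgax, also known from activated microglia, rose by 4.98 ± 0.22. Itgax exceeded the percentile only in the mutants at 13 weeks, so the size of its difference depends on the background correction. Of 9 B cell markers 7 were never above it, Cd79a, Cd79b and Pax5 among them, and Ighm rose by 1.19 ± 0.29. Of 7 monocyte and neutrophil markers, Vcan and Fn1 were tested and rose by 2.83 and 2.27, while the other 5 were never above the percentile. Of these Plac8 read 2.25, 2.26 and 2.30 in controls and 3.49, 3.61 and 3.30 in mutants at 13 weeks. Without the filter it was higher by 1.20 log2 (limma's adjusted p = 2.17e-06), so that 3 of 7 were higher, against 16% of all genes. Ccr2, S100a8, S100a9 and Chil3 differed by between -0.10 and -0.02. Ttr, the 1 choroid plexus marker tested, read 2.86, 3.10 and 3.19 in controls and 5.26, 3.35 and 7.32 in mutants at 13 weeks. It differed by 2.26 ± 0.77 (limma's adjusted p = 0.031), but did not pass without the filter (adjusted p = 0.0764). The other 4 choroid plexus markers on the array were never above the percentile.

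At 9 weeks the microglial list was set beside class I mouse by mouse. Its mean signal was 7.61 in each control and 7.49, 7.81 and 8.26 in the mutants, so mutant mouse 1 lay below the controls. The brightest probe sets of H2-D1, H2-K1 and B2m of that mouse lay above all controls, but its second-brightest H2-K1 probe set (6.79) lay below them. Mutant mouse 1 was also the lowest of the 3 mutants for the class I shift (0.262, against 0.365 and 0.325). The part of microglial RNA in the 9-week class I values was not tested. By limma 0 of 18 microglial markers passed at 9 weeks, against 5% of all genes, and 1 had an unadjusted p under 0.05, against 21.4%. None of 10 astrocyte markers passed either, again with 1 at an unadjusted p under 0.05, and of 10 medium spiny neuron markers 1, Rarb, was lower (-0.99, adjusted p = 0.0267).

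Of the 10 members 8 lie on chromosome 17, in the order Tapbp, H2-K1, Tap1, Tap2, H2-Ab1, H2-Aa, H2-Eb1 and H2-D1, while Cd74 and B2m lie elsewhere. Between H2-K1 and H2-D1, the RefSeq annotation (GRCm38.p6) places 103 genes that are not named as antigen presentation genes, of which 34 were tested. At 13 weeks 7 of them were higher and 13 lower, with a median of -0.28 log2. That is 20.6% higher against 23.4% of all genes, 38.2% lower against 21.9%, and 58.8% past the test against 45.3%. Of 10 tested antigen presentation genes of the same interval, 7 were higher (70%, against 23.4% of all genes), with a median of 2.79. Among these 10 are the 5 members Tap1, Tap2, H2-Ab1, H2-Aa and H2-Eb1. They were tested only because they are high in the mutants at 13 weeks, and so were Psmb8 and Psmb9 of the same interval. The filter thus largely set this count and median, and no count without it is given here. The highest of the neighbours were Aif1, a microglial gene (2.91 ± 0.31), Hspa1b, a heat shock chaperone (2.79 ± 0.59), and Clic1, an intracellular chloride channel protein (2.77 ± 0.32). Cd74 and B2m, away from the locus, rose by 5.13 and 3.33 log2. The part of chromosomal position in these values was not tested.

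The genes whose values followed the members most closely were ranked by the root-mean-square difference of their shifts over the 12 arrays. For the class I mean these were Msn, which encodes moesin (0.21 log2), Erap1 (0.21), Tubb6, a β-tubulin (0.22), Cd37, a tetraspanin (0.22), and Tmem106a (0.23). For the class II mean they were Sucnr1, the succinate receptor (0.13), Psmb9 (0.15), Cd84, a receptor of the SLAM family (0.17), Ifi47, an interferon-induced GTPase (0.17), and Dhrs1 (0.18). Since most of the variation is the rise in 3 arrays, this likeness describes those arrays. Msn differed by 0.39 log2 at 9 weeks, and the other 4 genes of its group by between -0.02 and 0.04.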

How the data were processed

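Total RNA of 12 striata was hybridised to Affymetrix arrays, and the deposited values are log2 signals that the authors made with GCRMA, per the submitters' processing notes, which give no version. The series text names 3 mice a group in one place and 5 GeneChips a condition in another; 12 arrays, 3 a group, were analysed here. Of 22690 probe sets, 64 array controls were left out and GEO's platform annotation gave 1 symbol for 20380, several for 691 and none for 1555.

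Values were used as deposited. Array medians ran from 5.29 to 5.52, and the 40th percentiles used as the filter from 3.51 to 3.81. All 4 groups were fitted together with limma 3.58.1 in R 4.3.3 (lmFit and eBayes, 8 residual degrees of freedom, two-sided, no covariate), without set tests. Errors are SEs of the fit unless given as SD, and folds are differences taken out of the log2 scale. The fit was tested on simulated data. Alternatives covered the normalization, the filter, the choice of probe set, the variance model, the arrays in the fit, sex and the replicate block; fits that left out an array kept the 8256 genes. Counts of the other lists without the filter, and values under 3.81 raised to it, were chosen after seeing the data.

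The members and the other gene lists were chosen with earlier results of these data known. Named by rule were all members, up to 4 genes of each other list with the smallest p at 13 weeks, and the 5 genes nearest to each class profile; further genes were named after their values had been seen. Sex was read from Xist and Eif2s3y, since the labels do not give it. Replicate numbers were not treated as pairs: same-numbered arrays of controls and mutants correlated in their deviations from the group means by -0.073 to 0.073 at 9 weeks and 0.095 to 0.184 at 13 weeks. Promoter sequences are from RefSeq (GRCm38.p6), matched by symbol. The array annotation names no genome build, so no position is given for the probe sets.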

Additional observations from a re-analysis of the deposited data

Results flagged for a closer look

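For 9 of the 10 genes the genotype effect differed between the ages by the interaction test in limma, as given in the report; 18.4% of all genes did so. The change of the mutant minus control difference from 9 to 13 weeks was 3.74 log2 for H2-D1, 3.04 for H2-K1, 2.98 for B2m, 3.73 for Tap1 and 2.25 for Tap2. In class II it was 4.91 for Cd74, 5.21 for H2-Aa, 2.35 for H2-Ab1 and 3.15 for H2-Eb1. Of these, Tap1, Tap2 and the class II genes lay below the 40th percentile in the other 3 groups. They were thus tested through the group in which they are high, and their sizes are not ranked. All 3 mutants at 13 weeks were female against 1 of 3 at 9 weeks; with sex as a term in the fit the same count, 9 of 10, passed.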

How the results depend on the processing

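Across 13 other settings and 12 fits that each left out an array, 1194 of the members' comparisons kept their direction and their side of the threshold, 3 lost the call, 11 gained it and 12 changed sign. With the filter at the 60th percentile only 6 members were tested, of which 6 passed at 13 weeks, 5 in the interaction and 6 with age in mutants. With each gene's probe sets averaged, the class I shift was 0.157 at 9 weeks and 2.26 at 13 weeks and the class II shift at 13 weeks 3.30. With low values raised to 3.81, an alternative chosen after seeing the data, the shift at 13 weeks was 2.65 for class I and 2.53 for class II, by construction of the raised controls. At 9 weeks 2 members passed in a fit of the compared groups alone and 4 with array weights, 3 higher and H2-Aa lower; that fit stopped before converging and passed 46.4% of all genes. With single arrays left out the 9-week count ranged from 0 to 1. With age in controls 1 member, Tapbp, passed among females alone, with 1 array in each of the groups compared. The replicate block gave 0 members at 9 weeks, 10 at 13 weeks, 9 in the interaction, 0 with age in controls and 10 with age in mutants, and changed no call on a member. Median centring moved the median of all genes at 13 weeks to -0.16 and kept all 10 calls.

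The sign changes concern differences near 0 that did not pass. Tap2 with age in controls was -0.01 under quantile normalization and under median centring and -0.005 with array weights, and -0.013 to 0.017 with single arrays left out. Under median centring Tap1, Tap2 and H2-Eb1 at 9 weeks were -0.005, -0.008 and -0.008. H2-D1 with age in controls was 0.005 with the mean of probe sets and -0.333 to 0.002 with single arrays left out. H2-Aa with age in controls was 0.02 among females and -0.157 to 0.003 with single arrays left out, and H2-Ab1 at 9 weeks was 0 among females. The cause of these changes was not tested.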
